A study of Mus musculus with 4 samples.

Results

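The 10 clock and output genes described here were chosen by symbol from the 19938 mouse genes with a probe set of their own on the arrays. The choice was made with earlier results of these data known. Their counts and ranks beside all genes are therefore a description and no test of the set. All 10 were found. Only Ciart had more than 1 probe set, and its brighter one by mean level was taken. The genes form 2 sets, Arntl and Nfil3, of the positive limb and the anti-phase, and the 8 feedback and output genes Per1, Per2, Per3, Ciart, Bhlhe41, Nr1d1, Nr1d2 and Dbp. All 10 also passed a level filter, a highest log2 value of at least 6.52, the median of all values, which 12471 genes passed. Ciart passed it only through its PBS arrays, so a lower value with flagellin is partly built into its selection, and counts are also given without it.

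The circadian clock is a loop of transcription factors that runs in most cells. ARNTL, also called BMAL1, pairs with CLOCK or NPAS2 and activates genes through E-box elements, among them the Period genes, Ciart, Bhlhe41, the REV-ERB genes Nr1d1 and Nr1d2 and the output gene Dbp, whose products include repressors of that pair. The REV-ERB receptors repress Arntl and Nfil3 through ROR response elements, so the transcripts of those 2 genes peak when those of the repressors and of Dbp are low. In airway epithelium the clock is known to set the size of inflammatory responses by the time of day.

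RNA came from nasal mucosa, that of septum and turbinates together, with 1 array in each of 4 groups: Duox2-/- with flagellin, Duox2-/- with PBS, wild type (Duox2+/+) with flagellin and wild type with PBS. Duox2 encodes an epithelial oxidase that makes hydrogen peroxide, and flagellin is the subunit protein of bacterial flagella. Mice of the strain given as C56BL/6 were 8 weeks old and took 25 ul per nostril of PBS or of a 5 ug/ml flagellin solution, for 4 h. How the Duox2 allele was made, whether an array holds 1 mouse or a pool, and the time of day at which tissue was taken are not given in the sources used here. A difference in the time of day cannot be told apart from the groups.

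With 1 array per group there is no spread between replicates, so every pairwise value below is a difference of log2 values with no test, and the number of arrays limits its precision. The median of an array was between 6.48 and 6.56 on the log2 scale. The spread was less even. The interquartile range was 2.43 with flagellin and 2.54 with PBS in the arrays labelled Duox2-/-, and 2.73 and 2.79 in wild type. The Duox2 probe set was dim, at 5.504 with flagellin and 5.23 with PBS in the arrays labelled Duox2-/-, against 5.12 with flagellin and 4.95 with PBS in wild type. It was thus not lower in the arrays of the mutant label, and since the sources do not say which exons the allele alters, it may not check the labels. Of the markers of the labelled tissue, 6 of 6 of ciliated cells, 4 of 4 of basal cells, 4 of 5 of secretory cells and 6 of 6 of olfactory neurons passed the level filter. In bulk tissue, fewer cells of a type and less RNA per cell cannot be told apart.

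Of the 8 feedback and output genes, 7 were lower with flagellin than with PBS in both genotypes, while Arntl and Nfil3 were higher. In the arrays labelled Duox2-/- all 8 feedback and output genes had a log2 difference below 0, with a median of -0.33 and a range of -0.54 to -0.14. In wild type 7 of the 8 were below 0, with a median of -0.598 and a range of -0.90 to 0.19, and the exception was Per1. Without Ciart, 7 of 7 were below 0 in the arrays labelled Duox2-/- and 6 of 7 in wild type, and the medians were -0.24 and -0.58. After cyclic loess the differences in the arrays labelled Duox2-/- kept their sign but most were smaller. Among these were Per2 (-0.14), Nr1d1 (-0.10), Nr1d2 (-0.10) and Dbp (-0.026), and the median of all ranked genes was then 0.0069. Over all ranked genes 62.2% were below 0 in the arrays labelled Duox2-/- and 50.4% in wild type, with medians of -0.07 and -0.0018. Without the level filter these shares were 51.2% and 47.9% of all 19938 genes, so the first depends on the filter. The mean log2 level of the 8 genes was 7.83 with flagellin and 8.18 with PBS in the arrays labelled Duox2-/-, and 7.68 with flagellin and 8.21 with PBS in wild type. The mean of Arntl and Nfil3 had the other direction, at 6.90 with flagellin and 6.77 with PBS in the arrays labelled Duox2-/-, and 7.26 with flagellin and 6.78 with PBS in wild type.

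None of the 10 genes was 2-fold higher or lower with flagellin in either genotype. The share of ranked genes past that size was 0.176% higher and 0.505% lower in the arrays labelled Duox2-/-, and 0.922% higher and 0.0561% lower in wild type. At a smaller size, at least 1.5-fold lower, 0 of the 8 feedback and output genes passed in the arrays labelled Duox2-/-, where 3.13% of ranked genes did. In wild type 4 of the 8 passed, Dbp, Nr1d1, Ciart and Bhlhe41, where 0.569% of ranked genes did. Ciart is subject to the filter and was just short of that size with the mean of its probe sets, at -0.5849, and without it 3 of 7 passed.

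**Figure D1:**
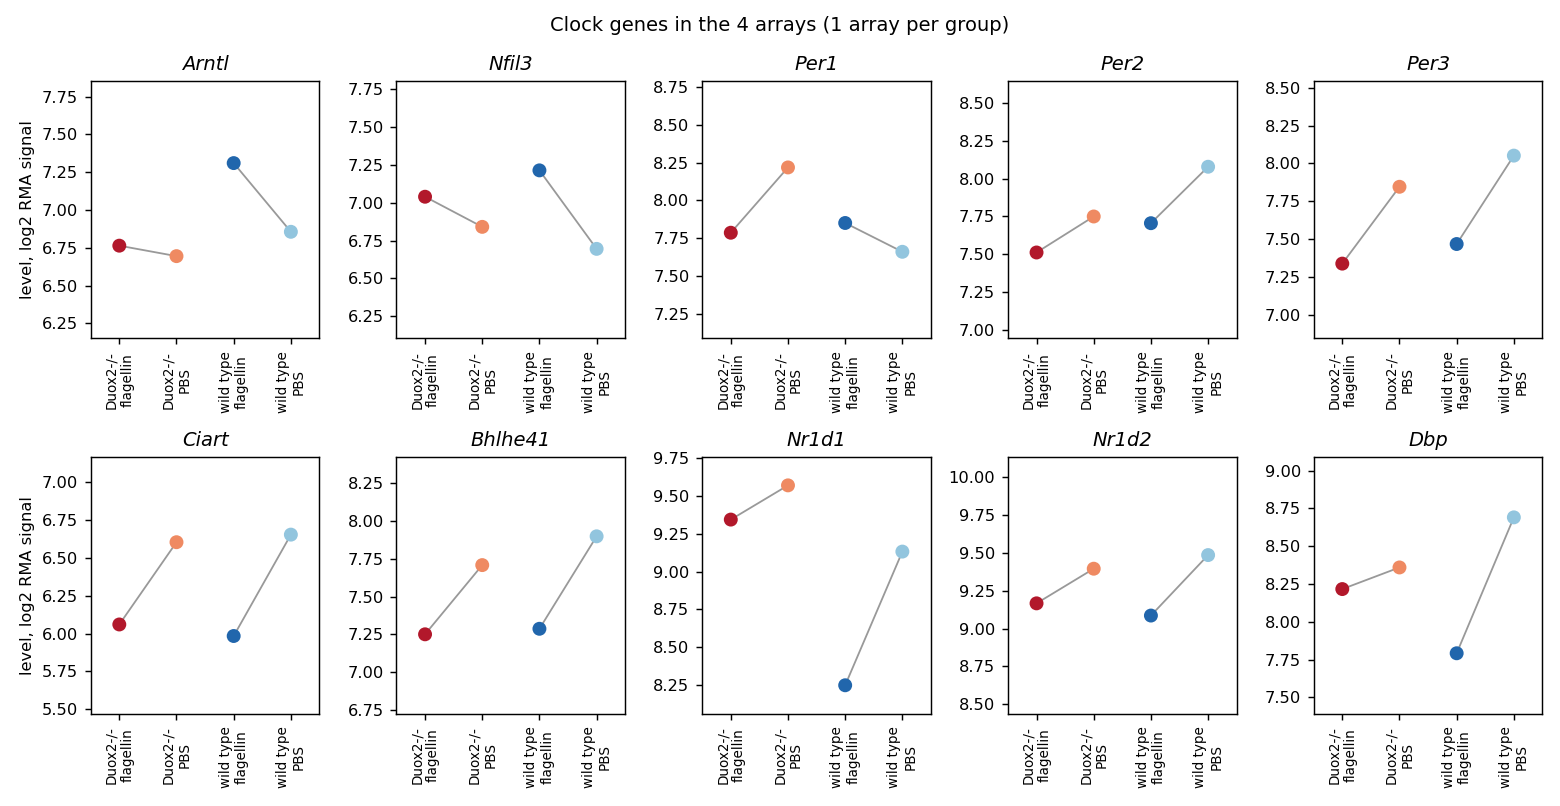
Level of each of the 10 genes in the 4 arrays, as log2 RMA signal, with every panel spanning the same range of log2 units and a grey line joining flagellin to PBS within a genotype. For Per2, Per3, Ciart, Bhlhe41, Nr1d1, Nr1d2 and Dbp the flagellin array was the lower in both genotypes, and for Arntl and Nfil3 it was the higher.

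Arntl, the activator of the loop, had a log2 level of 6.76 with flagellin and 6.69 with PBS in the arrays labelled Duox2-/-, and of 7.31 with flagellin and 6.86 with PBS in wild type. Its log2 difference, flagellin minus PBS, was therefore 0.07 in the arrays labelled Duox2-/- and 0.45 in wild type, so the wild-type flagellin array stood above the other 3. Nfil3, a bZIP repressor that competes with DBP at D-box elements and is also induced by cytokines in lymphoid and myeloid cells, had 7.04 with flagellin and 6.84 with PBS in the arrays labelled Duox2-/-, and 7.21 with flagellin and 6.695 with PBS in wild type. Its difference was 0.20 in the arrays labelled Duox2-/- and 0.52 in wild type, and both flagellin arrays stood above both PBS arrays.

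The promoters of these 2 genes are shown because they hold the core letters of the element that REV-ERB receptors are known to bind, beside 2 from the other set, Ciart and Per3, that carry other clock elements. Each window, from RefSeq on GRCm38.p6, runs from 250 bases before to 50 after a start site, 5′ to 3′. Capitals mark the letters AGGTCA, the core of a ROR response element, in Arntl and Nfil3, the E-box CACGTG in Ciart and the D-box TTANGTAA in Per3, each searched on both strands. In Nfil3 the match lies on the other strand and reads TGACCT here. Positions are chr7:113207261-113207560 on the plus strand for the second listed start of Arntl, chr13:52980990-52981289 on the minus strand for Nfil3, chr3:95882179-95882478 on the minus strand for Ciart and chr4:151044616-151044915 on the minus strand for Per3.
Arntl: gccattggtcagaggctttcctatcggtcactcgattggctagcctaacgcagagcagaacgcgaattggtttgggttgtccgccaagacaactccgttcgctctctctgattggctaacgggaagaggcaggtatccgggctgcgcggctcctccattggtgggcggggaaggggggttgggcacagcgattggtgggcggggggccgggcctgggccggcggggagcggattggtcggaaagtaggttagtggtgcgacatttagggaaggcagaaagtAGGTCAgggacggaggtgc
Nfil3: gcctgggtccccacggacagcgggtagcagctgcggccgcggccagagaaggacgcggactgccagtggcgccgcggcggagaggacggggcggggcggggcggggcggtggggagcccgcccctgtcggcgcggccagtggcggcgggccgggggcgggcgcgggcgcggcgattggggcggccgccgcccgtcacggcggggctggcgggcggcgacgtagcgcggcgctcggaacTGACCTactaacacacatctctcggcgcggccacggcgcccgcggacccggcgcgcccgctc
Ciart: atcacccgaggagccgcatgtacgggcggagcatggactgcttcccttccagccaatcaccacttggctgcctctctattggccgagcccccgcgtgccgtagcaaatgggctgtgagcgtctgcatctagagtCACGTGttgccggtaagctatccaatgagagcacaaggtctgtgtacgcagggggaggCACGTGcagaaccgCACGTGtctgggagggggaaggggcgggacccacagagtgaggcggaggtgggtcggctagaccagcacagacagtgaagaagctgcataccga
Per3: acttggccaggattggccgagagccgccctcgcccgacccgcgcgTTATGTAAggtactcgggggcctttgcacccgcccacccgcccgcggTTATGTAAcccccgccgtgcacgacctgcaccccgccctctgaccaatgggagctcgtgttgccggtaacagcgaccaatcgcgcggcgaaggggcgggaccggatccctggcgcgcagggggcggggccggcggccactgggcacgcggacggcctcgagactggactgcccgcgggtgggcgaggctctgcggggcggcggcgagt

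Windows were found for 9 of the 10 genes, all but Per2, and numbered 11, with 2 starts each for Arntl and Per1. The AGGTCA core occurred in 4 of the 11 windows, those of Nfil3 and Nr1d2, the second of Arntl and the first of Per1, and in 16.3% of all 32851 windows. The first Arntl window, not shown, held none of the 3 motifs. The E-box occurred in 3 of the 11 windows, of Ciart with 3 copies, Per1 and Bhlhe41, and in 7.15% of all windows. The D-box occurred in 1 of the 11, of Per3 with 2 copies, and in 2.32% of all windows. The AGGTCA core occurred in both sets of genes. The E-box occurred in windows of feedback and output genes, though those of Per3, Nr1d1, Nr1d2 and Dbp held none. Arntl and Nfil3 have too few windows for a contrast between the sets. These matches describe letters in short windows and do not show binding.

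Of the Period genes, whose proteins form the repressor complex with cryptochromes, Per3 and Per2 were lower with flagellin in both genotypes. Per3 had a log2 level of 7.34 with flagellin and 7.85 with PBS in the arrays labelled Duox2-/-, and of 7.47 with flagellin and 8.05 with PBS in wild type. The difference was of like size, -0.51 in the arrays labelled Duox2-/- and -0.58 in wild type, and both flagellin arrays lay under both PBS arrays. Per2 had 7.51 with flagellin and 7.75 with PBS in the arrays labelled Duox2-/-, and 7.71 with flagellin and 8.08 with PBS in wild type. Its difference was -0.24 in the arrays labelled Duox2-/- and -0.37 in wild type, and again the flagellin arrays were the lowest of the 4.

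Per1, a Period gene that glucocorticoids and cAMP signals induce directly, did not follow Per2 and Per3. Its log2 level was 7.79 with flagellin and 8.22 with PBS in the arrays labelled Duox2-/-, and 7.85 with flagellin and 7.66 with PBS in wild type. The PBS array labelled Duox2-/- stood above the other 3. The difference was -0.43 in the arrays labelled Duox2-/- and 0.19 in wild type, of opposite sign.

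Ciart and Bhlhe41, which encode repressors of the activator pair, had responses of like size in both genotypes. Ciart had a log2 level of 6.06 with flagellin and 6.60 with PBS in the arrays labelled Duox2-/-, and of 5.98 with flagellin and 6.65 with PBS in wild type. Its difference was -0.54 in the arrays labelled Duox2-/- and -0.67 in wild type. Both flagellin values lay under the level filter. A second probe set of Ciart gave smaller differences, -0.10 in the arrays labelled Duox2-/- and -0.4996 in wild type, so the response in the arrays labelled Duox2-/- depends on the probe set. Bhlhe41, also called DEC2, had 7.25 with flagellin and 7.71 with PBS in the arrays labelled Duox2-/-, and 7.29 with flagellin and 7.899 with PBS in wild type. Its difference was -0.46 in the arrays labelled Duox2-/- and -0.61 in wild type, and both flagellin arrays lay under both PBS arrays.

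The REV-ERB genes Nr1d1 and Nr1d2 encode the receptors that repress Arntl. Nr1d1 had a log2 level of 9.34 with flagellin and 9.57 with PBS in the arrays labelled Duox2-/-, and of 8.25 with flagellin and 9.13 with PBS in wild type. The wild-type flagellin array stood far under the other 3. The difference was -0.23 in the arrays labelled Duox2-/- and -0.88 in wild type, where flagellin left 0.542 times the PBS level. Nr1d2 varied least of the 10 genes, with a range of 0.3997 over the 4 arrays. It had 9.17 with flagellin and 9.396 with PBS in the arrays labelled Duox2-/-, and 9.09 with flagellin and 9.49 with PBS in wild type, with differences of -0.23 and -0.3997.

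Dbp, a PAR bZIP activator of D-box genes and a direct output of the clock, had a log2 level of 8.22 with flagellin and 8.36 with PBS in the arrays labelled Duox2-/-, and of 7.79 with flagellin and 8.69 with PBS in wild type. The wild-type flagellin array was the lowest and the wild-type PBS array the highest. The difference was -0.14 in the arrays labelled Duox2-/- and -0.898 in wild type, where flagellin left 0.54 times the PBS level. In wild type Dbp ranked 16 and Nr1d1 18 from the lowest of 12471 genes, and Ciart ranked 45, Bhlhe41 60 and Per3 73. In the arrays labelled Duox2-/- the order differed: Ciart ranked 489 and Per3 595 from the lowest, while Nr1d1 ranked 3112 and Dbp 4662.

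**Figure D2:**
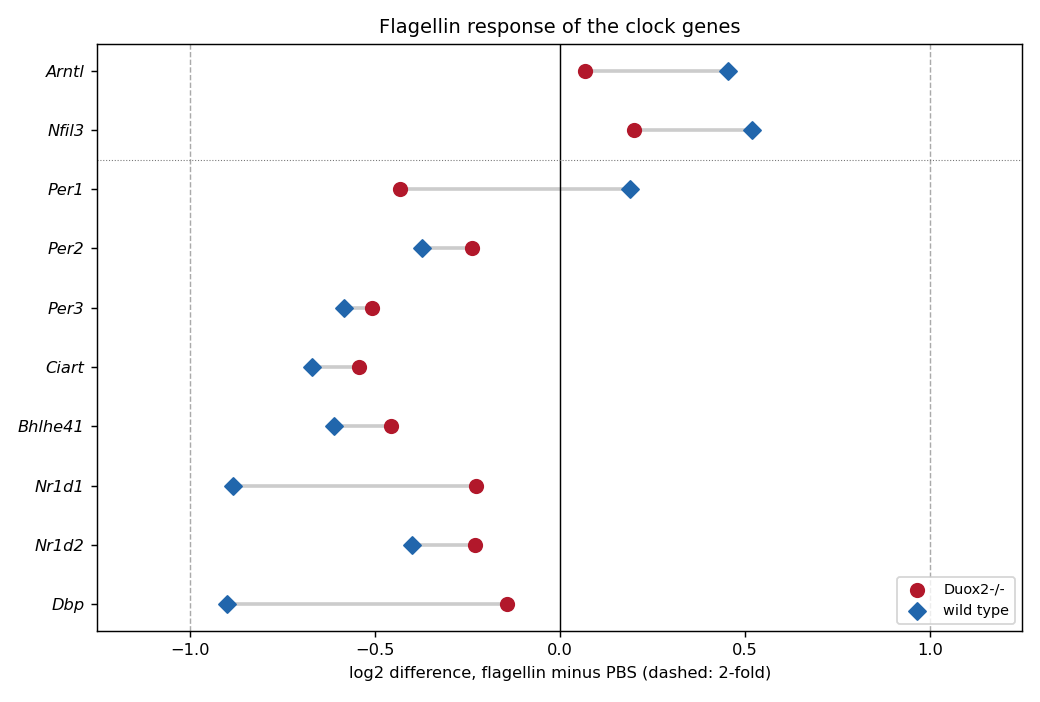
Log2 difference, flagellin minus PBS, of each gene, with circles for the arrays labelled Duox2-/- and diamonds for wild type, dashed lines at 2-fold and a dotted line between the 2 sets. Arntl and Nfil3 lie right of 0 in both genotypes and 7 of the other 8 genes left of 0 in both, while Per1 lies at -0.43 in the arrays labelled Duox2-/- and at 0.19 in wild type.

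An additive limma model tested a flagellin effect common to both genotypes over all 12471 ranked genes, with genotype as the other term. In it the interaction is the error, and arrays of the 2 genotypes stand in for replicates. None of the 10 genes passed at an adjusted p of 0.05, where 0.241% of ranked genes were called higher and 0.0401% lower. Since the 10 were chosen with earlier results of these data known, the count of their unadjusted p-values is a description. At an unadjusted p under 0.05 there were 8 of the 10, all but Arntl and Per1, where 6.45% of ranked genes had one. After cyclic loess 4 of the 10 had one, Nfil3, Per3, Ciart and Bhlhe41, where 5.55% of genes did, and after quantile renormalisation 6 did, without Per2 and Nr1d2. Per3 had an effect of -0.55 ± 0.13 (SE, limma adjusted p = 0.245) and Bhlhe41 one of -0.53 ± 0.13 (limma adjusted p = 0.279). Ciart, subject to the filter, had one of -0.61 ± 0.13 (limma adjusted p = 0.174, and 0.168 with no filter). Nr1d1 and Dbp, whose 2 responses were less alike, had effects of -0.55 ± 0.17 and -0.52 ± 0.18 (limma adjusted p = 0.454 and 0.589). Nfil3 had an effect of 0.36 ± 0.14 (limma adjusted p = 0.667) and Arntl one of 0.26 ± 0.14 (limma adjusted p = 0.862).

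Markers of several cell types also differed with flagellin. The summed linear signal of the 6 ciliated cell markers was 1658 with flagellin and 2116 with PBS in the arrays labelled Duox2-/-, and 2108 with flagellin and 2601 with PBS in wild type, with 1 of 6 above 0 and 0 of 6 above 0. That of the 8 neutrophil markers was 735 with flagellin and 649 with PBS in the arrays labelled Duox2-/-, and 1199 with flagellin and 381 with PBS in wild type, with 7 of 8 and 8 of 8 above 0. The first list had the direction of most feedback and output genes and the second that of Arntl and Nfil3. Olfactory neuron markers also had the latter direction, with 6 of 6 above 0 in the arrays labelled Duox2-/- and 5 of 6 in wild type. The 8 skeletal muscle markers had the signs of Per1, with 0 of 8 above 0 in the arrays labelled Duox2-/- and 8 of 8 above 0 in wild type. No marker is at 0 on a log2 signal scale, and 2 of the 8 neutrophil markers were dim in all 4 arrays. In wild type with PBS every neutrophil and skeletal muscle marker lay under the level filter, with mean log2 levels of 5.50 and 5.32. The sums there are therefore of dim values. Camp, counted above 0 in the arrays labelled Duox2-/-, was at 0.0096, and the muscle marker Mylpf was dim in all 4 arrays. The part of these lists in the clock gene differences was not tested.

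The difference between the responses, that of the arrays labelled Duox2-/- minus that of wild type, was above 0 for 7 of the 8 feedback and output genes. Of all ranked genes 40.1% were above 0. The median of the 8 was 0.14, against a median of -0.07 over all ranked genes. The 7 members above 0 were thus lower with flagellin by less in the arrays labelled Duox2-/-. The difference was at least 1.5-fold for Dbp, at 0.76, and for Nr1d1, at 0.66, a size that 1.26% of ranked genes reached. It was small for Per3 (0.077), Ciart (0.13), Per2 (0.14), Bhlhe41 (0.15) and Nr1d2 (0.17). The second probe set of Ciart gave a larger difference between the responses, 0.40. For Per1 it was -0.62, past 1.5-fold in the other direction with 5.83% of ranked genes, though short of it after cyclic loess (-0.53) and quantile renormalisation (-0.54), and for Arntl and Nfil3 it was -0.39 and -0.32. With 1 array per group no test of this difference was possible.

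Between genotypes the members had no common direction. With flagellin the log2 difference, Duox2-/- minus wild type, had a median of 0.02 over the 8 feedback and output genes, with 4 above and 4 below 0, and a mean of -0.36 for Arntl and Nfil3. Of the 8, Bhlhe41, Ciart and Per1 had the other sign under 2 of 4 alternative scalings or probe set rules each. With PBS the median of the 8 was -0.14, with 2 above and 6 below 0, and the mean of Arntl and Nfil3 was -0.0077. Over all ranked genes the medians were -0.12 with flagellin and -0.04 with PBS. Of the ranked genes 33.2% were above and 66.8% below 0 with flagellin, and 42.3% above and 57.7% below 0 with PBS. Nr1d1 with flagellin was the 1 member past 2-fold, where 0.353% of ranked genes were higher and 1.65% lower by that size. With PBS no member passed, where 1.13% were higher and 0.281% lower.

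Nr1d1 was higher in the arrays labelled Duox2-/- in both treatments. The difference was 1.095 with flagellin, a ratio of 2.14, and 0.44 with PBS, a ratio of 1.35. In the additive limma model its genotype effect was 0.77 ± 0.17 (SE) with an adjusted p of 0.0453, where 2.39% of ranked genes were called higher and 1.98% lower. This call was lost after quantile renormalisation (limma adjusted p = 0.0566), median centring (0.0832) and cyclic loess (0.130). It was the only call for genotype among the 10 genes, and Nr1d1 and Arntl were the 2 with an unadjusted p under 0.05, where 23.2% of ranked genes had one. Arntl had a genotype effect of -0.35 ± 0.14 (limma adjusted p = 0.184), at -0.55 with flagellin and -0.16 with PBS, the opposite direction to Nr1d1. The other REV-ERB gene, Nr1d2, had a genotype effect of -0.0047, and Nfil3, which REV-ERB receptors also repress, had one of -0.014. A link between these genes was not tested.

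Dbp was on opposite sides of 0 in the 2 treatments, at 0.42 with flagellin and -0.33 with PBS. Per1 was at -0.06 with flagellin and 0.56 with PBS, which ranked 442 from the highest of 12471 genes. Per2 was lower in the arrays labelled Duox2-/- in both treatments, at -0.19 with flagellin (between -0.25 and -0.06 under the alternatives) and -0.33 with PBS (additive effect -0.26 ± 0.13, limma adjusted p = 0.273). Per3, Ciart, Bhlhe41 and Nr1d2 lay between -0.13 and 0.081 with flagellin and between -0.21 and -0.05 with PBS. Basal cell markers were lower in the arrays labelled Duox2-/- in the same comparisons, with 0 of 4 above 0 in both treatments and a summed linear signal of 794 with flagellin and 1397 with PBS, against 2740 with flagellin and 2445 with PBS in wild type. The 8 skeletal muscle markers summed to 510 with flagellin and 2347 with PBS in the arrays labelled Duox2-/-, against 1183 and 364 in wild type. In wild type with PBS each of these muscle markers lay under the level filter. The part of these lists was not tested.

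**Figure D3:**
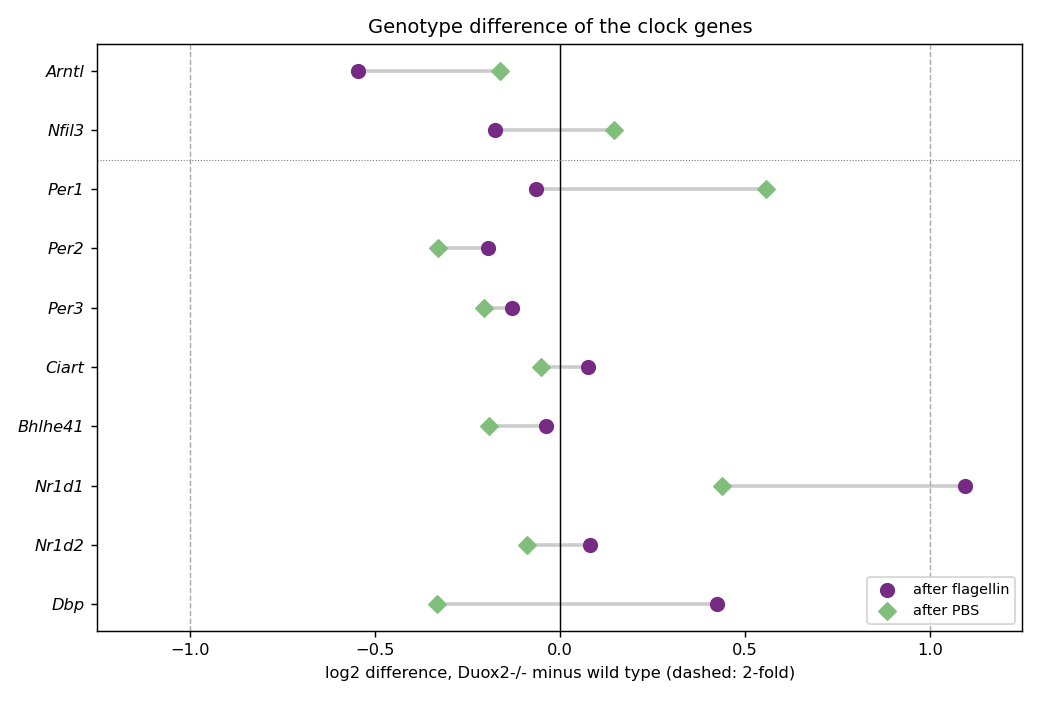
Log2 difference, Duox2-/- minus wild type, of each gene, with circles for the flagellin arrays, diamonds for the PBS arrays and dashed lines at 2-fold. Nr1d1 lies right of 0 in both treatments, at 1.095 with flagellin and 0.44 with PBS, and Arntl left of 0 in both, while Dbp and Per1 lie on opposite sides of 0 in the 2 treatments.

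Of 23 other clock and clock-controlled genes, 19 were matched and 4 were not analysed here. None of the 19 was past 2-fold with flagellin or between genotypes. Their median difference with flagellin was -0.10 in the arrays labelled Duox2-/-, with 5 above 0, and -0.05 in wild type, with 8 above 0. Of all ranked genes 37.8% and 49.5% were above 0 in these comparisons. In the additive model 0 of the 15 that passed the level filter were called for flagellin, where 0.241% of ranked genes were called higher and 0.0401% lower. For genotype 1 was called, Bhlhe40, which was lower, where 2.39% of ranked genes were called higher and 1.98% lower. Of these 15, Rora, Bhlhe40 and Usp2 had an unadjusted limma p under 0.05 for flagellin, where 6.45% of ranked genes had one.

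Among activators, Clock, the partner of ARNTL, differed with flagellin by -0.28 in the arrays labelled Duox2-/- and by 0.098 in wild type. Rora, whose receptor activates Arntl, differed by -0.36 in the arrays labelled Duox2-/- and by -0.26 in wild type. Among repressors, Cry1 and Cry2 hardly varied, with ranges over the 4 arrays of 0.11 and 0.21, and Cipc, an inhibitor of CLOCK, had a range of 0.245. Bhlhe40, the paralog of Bhlhe41, differed with flagellin by -0.66 in the arrays labelled Duox2-/- and by -0.34 in wild type, and its genotype effect was -0.69 ± 0.14 (limma adjusted p = 0.0373). That call was lost after median centring (limma adjusted p = 0.0542), quantile renormalisation (0.0543) and cyclic loess (0.115).

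The PAR bZIP outputs related to Dbp had smaller responses. Tef differed with flagellin by -0.11 in the arrays labelled Duox2-/- and by -0.43 in wild type, and Hlf by 0.048 and -0.12. The kinase gene Csnk1e, whose product marks Period proteins for degradation, differed by -0.20 and 0.10. Fbxl21, a ligase gene for cryptochromes, differed by 0.10 and 0.17, and Timeless by -0.14 and 0.086, both dim. Of the clock-controlled outputs, the deubiquitinase gene Usp2 differed by -0.53 and -0.25 and the NAD synthesis gene Nampt by -0.047 and -0.36.

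Because glucocorticoids induce Per1, 10 glucocorticoid-induced genes were set beside it. With flagellin they had a median difference of -0.47 in the arrays labelled Duox2-/-, with 2 of 10 above 0, and of 0.25 in wild type, with 10 of 10 above 0. Per1 had the same signs, at -0.43 in the arrays labelled Duox2-/- and 0.19 in wild type. The same signs held for the markers of basal cells, with 0 of 4 above 0 in the arrays labelled Duox2-/- and 4 of 4 in wild type, of macrophages, with 0 of 5 and 5 of 5, and of fibroblasts, with 0 of 5 and 4 of 5. Between genotypes the median of the 10 glucocorticoid-induced genes was -0.39 with flagellin and 0.24 with PBS, and Per1 was at -0.06 and 0.56. Fkbp5, a co-chaperone of the glucocorticoid receptor, had a log2 level of 8.30 with flagellin and 8.75 with PBS in the arrays labelled Duox2-/-, and of 8.10 with flagellin and 7.76 with PBS in wild type, and like Per1 it was highest in the PBS array labelled Duox2-/- and lowest in the wild-type PBS array. Zbtb16, a zinc finger gene, had 7.95 with flagellin and 8.15 with PBS in the arrays labelled Duox2-/-, and 6.81 with flagellin and 6.77 with PBS in wild type, with a genotype effect of 1.26 ± 0.13 (limma adjusted p = 0.00653). It was the 1 gene of the list past 2-fold in a pairwise comparison, and its call was lost after cyclic loess (limma adjusted p = 0.0575). Whether Per1 and this list share a cause was not tested.

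**Figure D4:**
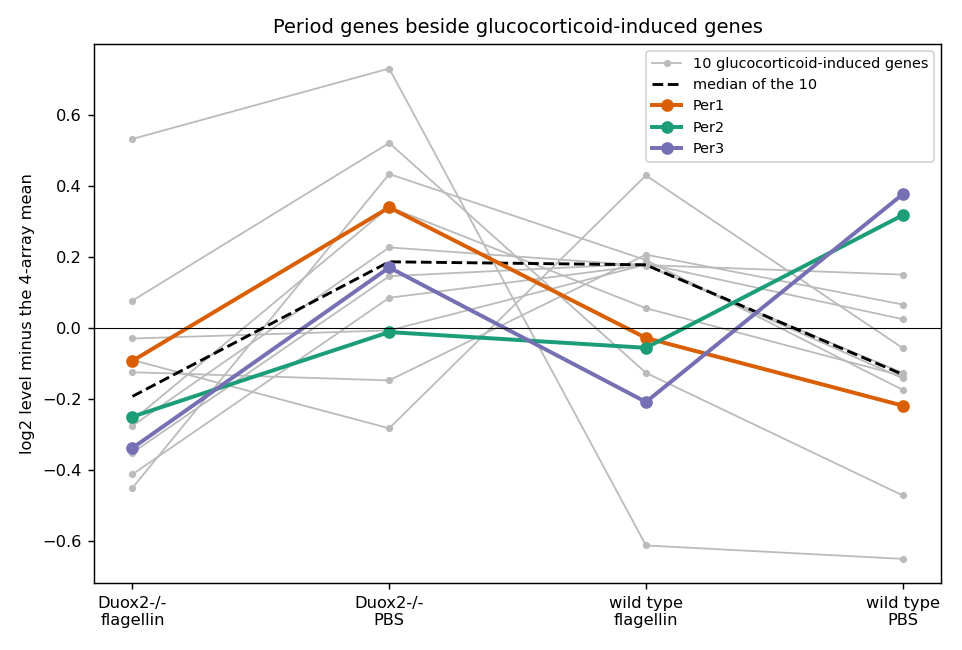
Log2 level of Per1, Per2 and Per3 in the 4 arrays, each minus its mean over the arrays, with 10 glucocorticoid-induced genes in grey and their median as a dashed line. Per1 and the dashed line are lower with flagellin than with PBS in the arrays labelled Duox2-/- and higher in wild type, while Per2 and Per3 are lower with flagellin in both.

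Immediate early genes, which respond to acute signals, had a median difference with flagellin of 0.0013 in the arrays labelled Duox2-/- and of -0.17 in wild type, where 0 of 6 were above 0. Nr4a1, an orphan nuclear receptor gene, differed by -0.31 and -0.49, and Egr1, a zinc finger gene, by -0.13 and -0.58.

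The genes most like Dbp and Arntl were found by the root mean square distance of the 4 log2 values, each gene centred on its own mean. The search covered 11540 ranked genes, with members, predicted genes and odorant, vomeronasal and trace amine receptor genes left out. Nearest to Dbp were Lcn4 at a distance of 0.091, Gabra4 at 0.10, Bmyc at 0.105, Aldh1l2 at 0.106 and Gjb1 at 0.11. Among the members the nearest to Dbp was Ciart at 0.16, then Bhlhe41 at 0.17, Nr1d2 at 0.18 and Per3 at 0.20. Nearest to Arntl were P2ry13 at 0.023, Nfkbiz at 0.029, Lpar3 at 0.029, Parp8 at 0.035 and Srgn at 0.037, and the nearest member was Nfil3 at 0.18. With 4 arrays many genes have such a pattern, and the distances are a description.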

How the data were processed

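TRIzol-extracted RNA was hybridised to 4 Affymetrix arrays, 1 per group. The authors deposited log2 values, a scale read from their range, made by RMA with Affymetrix Expression Console 1.1, per the submitters' processing notes. No source used here names the genome build of the probe sets. Of 35556 probe sets 21789 were paired with 1 gene, 1621 with several and 12146 with none, by GEO's platform annotation with symbols updated to GRCm38.p6.

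Pairwise values are differences of log2 values with no p-value. The additive model, genotype plus treatment, used limma 3.58.1 under R 4.3.3, with eBayes (7.48 prior degrees of freedom) and Benjamini-Hochberg adjustment over 12471 genes at 0.05. It leaves 1 residual degree of freedom. A trial on simulated data gave both genotypes the same flagellin shift, so it cannot show how the model does with an interaction. Tables and figures used Python 3.11.15. Alternatives were cyclic loess, quantile renormalisation, median centring, the mean of a gene's probe sets, no level filter, a size of 1.5-fold, leaving out receptor genes and an intensity trend in eBayes. Receptor genes here are those of odorant, vomeronasal and trace amine receptors.

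The members, lists and tests were chosen with earlier results of these data known. A value with no test counts as moved where an alternative shifts it by more than the robust SD of that comparison over ranked genes. Besides the members, the text names the 2 genes of each other non-marker list with the widest range over the 4 arrays, any clock gene past 2-fold and the 5 genes nearest to Dbp and to Arntl. Cry1 and Cry2 were named after their values were seen.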

Additional observations from a re-analysis of the deposited data

Results flagged for a closer look

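The following genes had effects of opposite sign in the 2 groups of the same contrast. With 1 array per group none of these differences was tested, and small values change sign easily.

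For the flagellin response, values are the response in the arrays labelled Duox2-/- minus that in wild type. The difference was -0.62 for Per1, -0.38 for Clock, 0.17 for Hlf, -0.30 for Csnk1e, -0.22 for Timeless, -0.24 for Zbtb16 and -0.79 for Fkbp5.

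For the genotype difference, values are the difference with flagellin minus that with PBS. It was 0.76 for Dbp, -0.62 for Per1, -0.32 for Nfil3, 0.13 for Ciart and 0.17 for Nr1d2. Among the other clock genes it was 0.32 for Tef, 0.17 for Hlf, -0.30 for Csnk1e, -0.22 for Timeless and -0.28 for Usp2, and for the immediate early gene Egr1 it was 0.45.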

How the results depend on the processing

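The directions of the members' flagellin responses held, and none moved by more than the robust SD, 0.23 in the arrays labelled Duox2-/-. Several of the values there were smaller in size under an alternative. Per2, Nr1d1, Nr1d2 and Dbp were at -0.14, -0.10, -0.10 and -0.026 after cyclic loess, and Ciart at -0.32 with the mean of its probe sets. The median of all ranked genes in that comparison also rose, from -0.07 as deposited to 0.0069 after cyclic loess. The members with an unadjusted p under 0.05 for flagellin numbered 8 as deposited, 4 after cyclic loess, 6 after quantile renormalisation and 7 with no filter. All 8 feedback and output genes were below 0 in the arrays labelled Duox2-/- and 7 in wild type as deposited and after cyclic loess, quantile renormalisation, median centring and averaging of probe sets, a check added after seeing the data, as was leaving out Ciart. Of the members' additive effects, 6 values had the other sign, each for genotype and near 0, and so did the difference between genotypes with flagellin of Bhlhe41, Ciart and Per1 under 2 alternatives each. Ciart was at -0.12 after cyclic loess, -0.088 after quantile renormalisation and -0.059 after median centring. Nr1d2 was at 0.11 and 0.10 after the first 2 of these, and Dbp at -0.025 after median centring. The cause was not tested.

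The counts over all genes moved more. At 1.5-fold, 514 genes passed with flagellin in the arrays labelled Duox2-/- and 365 in wild type, 1386 between genotypes with flagellin and 638 with PBS, and 884 for the difference of responses, against 85, 122, 250, 176 and 197 at 2-fold. Without the level filter 137, 312 and 318 passed at 2-fold for flagellin in the arrays labelled Duox2-/-, genotype with PBS and the difference of responses. Without receptor genes 72 passed for flagellin in wild type and 98 for genotype with PBS. Of the genes past 2-fold between genotypes with PBS, 80.1% were higher, against 69.4% after median centring, 64.3% without receptor genes and 61.0% at 1.5-fold. With flagellin 17.6% were higher, against 28.7% with no filter and 41.1% at 1.5-fold. The additive model called 545 genes for genotype, but after cyclic loess 1 (unadjusted p under 0.05: 2340), 271 after quantile renormalisation, 159 after median centring, 1879 with no filter and 921 with an intensity trend. For flagellin it called 35, but after cyclic loess 0 (limma unadjusted p under 0.05: 687), 7 after median centring, 60 with no filter and 81 with a trend. No member was called for flagellin under any of these, with adjusted p from 0.0568 to 1. No paired analysis was possible because each group has 1 array, and for the same reason no array could be left out.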
